A study of Mus musculus with 6 samples.

Results

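The genes described here are 40 genes of mitosis, chosen by name for their roles, and read in sorted 5C.C7 T cells. A single-gene probe set on the array was assigned to 39 of the 40, through 89 probe sets in all, and each gene is represented by its probe set with the highest mean over the 6 arrays. Expression of cyclin B1 (Ccnb1) was not analysed here, and this gene enters the promoter search alone. All 39 representatives passed the filter on dim probe sets, among 11990 genes that passed it in the whole table. Both groups of donor T cells carried the 5C.C7 receptor transgene, which recognises a peptide of moth cytochrome c (MCC), lacked RAG2 and bore the CD45.1 allele. One group was otherwise wild type and the other lacked CTLA-4 (CTLA-4 KO). Donor cells were moved into B10.A recipients, the mice were immunized with MCC peptide and LPS, and on day 4 the T cells were sorted. There were 3 arrays of each genotype, from 2 µg of total RNA each. CTLA-4 was deleted in the donor mice and not in the recipients, and the sources used here do not name the marker of the sort.

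Mitosis is driven by cyclin-dependent kinase 1 bound to cyclins A and B. Kinetochores tie chromosomes to spindle microtubules, the spindle checkpoint holds back the anaphase-promoting complex (APC/C) until all are attached, and the central spindle and a contractile ring then divide the cell. Transcripts of most of these genes are made late in the cell cycle, so in a mixed population their level follows how many cells are in G2 and M phase as well as the amount in each cell. In bulk RNA of this kind, more cells in mitosis and more RNA per mitotic cell cannot be told apart. Activated T cells divide rapidly in the first days after antigen, and CTLA-4 is an inhibitory receptor of such cells.

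Promoters of late cell cycle genes are known for 2 short elements, the CCAAT box bound by NF-Y and the cell cycle genes homology region (CHR), bound by the DREAM and MuvB complexes. RefSeq promoter windows of GRCm38.p6, 250 bases before to 50 after the transcription start, were matched for 33 of the 40 genes. Aurkb, Ccna2, Cdc25c, Foxm1, Incenp, Kif20a and Tpx2 were not among them. The stretches below are the 150 bases before the start, shown for one gene of each step of mitosis (for Prc1, the second of its starts), 5′ to 3′ on the gene's strand, with CCAAT (or ATTGG) and TTTGAA or TTCGAA (or TTCAAA) in capitals.
Cdk1 (chr10:69352913-69353062, minus strand): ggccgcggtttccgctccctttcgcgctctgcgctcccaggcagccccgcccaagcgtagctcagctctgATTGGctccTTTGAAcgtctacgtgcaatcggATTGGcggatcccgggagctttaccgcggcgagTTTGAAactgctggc
Ube2c (chr2:164769779-164769928, plus strand): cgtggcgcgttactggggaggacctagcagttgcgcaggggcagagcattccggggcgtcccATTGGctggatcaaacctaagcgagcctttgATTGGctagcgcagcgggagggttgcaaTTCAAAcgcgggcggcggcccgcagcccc
Cenpf (chr1:189688087-189688236, minus strand): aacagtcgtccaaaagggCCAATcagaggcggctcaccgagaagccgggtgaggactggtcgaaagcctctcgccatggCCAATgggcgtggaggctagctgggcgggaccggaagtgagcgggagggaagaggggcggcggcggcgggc
Cdca8 (chr4:124936918-124937067, minus strand): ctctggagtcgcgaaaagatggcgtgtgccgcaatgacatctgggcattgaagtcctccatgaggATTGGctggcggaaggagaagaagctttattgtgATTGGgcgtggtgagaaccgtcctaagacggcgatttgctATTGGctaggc
Kif11 (chr19:37376232-37376381, plus strand): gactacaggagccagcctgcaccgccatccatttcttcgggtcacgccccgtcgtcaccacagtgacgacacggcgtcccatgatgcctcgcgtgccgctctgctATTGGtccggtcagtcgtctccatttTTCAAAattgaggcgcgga
Top2a (chr11:99024190-99024339, minus strand): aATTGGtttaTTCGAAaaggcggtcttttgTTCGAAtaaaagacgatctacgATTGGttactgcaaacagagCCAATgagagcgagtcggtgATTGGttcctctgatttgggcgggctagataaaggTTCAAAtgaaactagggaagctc
Prc1 (chr7:80294326-80294475, plus strand): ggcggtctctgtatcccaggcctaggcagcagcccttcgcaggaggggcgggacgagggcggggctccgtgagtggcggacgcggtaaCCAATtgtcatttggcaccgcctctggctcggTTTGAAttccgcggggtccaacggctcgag
The Cdk1, Ube2c, Kif11, Top2a and Prc1 stretches hold both elements, and those of Cenpf and Cdca8 hold CCAAT alone.

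Searched on both strands in the whole 300-base window, TTTGAA or TTCGAA was found in 25 of 33 mitosis genes (75.8%), in 7 of 33 genes of DNA replication (21.2%) and in 20.2% of 17492 protein-coding genes. CCAAT was found in 25 of 33 mitosis genes (75.8%), in 22 of 33 replication genes (66.7%) and in 42.3% of all. Both together were in 22 of the 33 (66.7%), against 15.2% of the replication genes and 8.22% of all. High shares were not particular to these genes. Among 73 genes of a second mitosis list, described below, 60.3% had TTTGAA or TTCGAA, 64.4% had CCAAT and 43.8% had both. The CHR letters lay close to the start. Matches were counted over 35 windows, as Ect2 and Prc1 have 2 starts each, and a site in both windows counts in each. Of 38 CHR matches in the mitosis windows 18 (47.4%) began at or after the start, against 10.2% in all protein-coding genes. In the 250 bases before the start alone, 36.4% of mitosis genes had a match, against 41.1% in the second list and 18.4% of all genes. CCAAT matches lay mostly upstream, with 6.06% after the start against 8.11% in all protein-coding genes. Neighbouring ones had a median spacing of 36 bases, against 45 in replication genes and 49 in all genes. At least 2 CCAAT matches were found in 54.5% of mitosis genes, 45.5% of replication genes, 39.7% of the second list and 14.6% of all. More matches in a window of fixed length lie closer together, so the spacing cannot be read apart from their number. Among the 66 CCAAT and 38 CHR matches, 1 pair of the 2 kinds overlapped. These are letter matches and not measured binding. Among the 32 genes with both a window and an array value, 13 of the 25 with a CHR match rose, as did 4 of the 7 without. The median log2 difference between genotypes was 0.91 in those with a CHR match and 0.99 in those without. It was 0.94 in the 24 with CCAAT, of which 15 rose, and 0.85 in the 8 without, of which 2 rose. The ranges overlapped in both cases, and neither difference was tested.

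**Figure D1:**
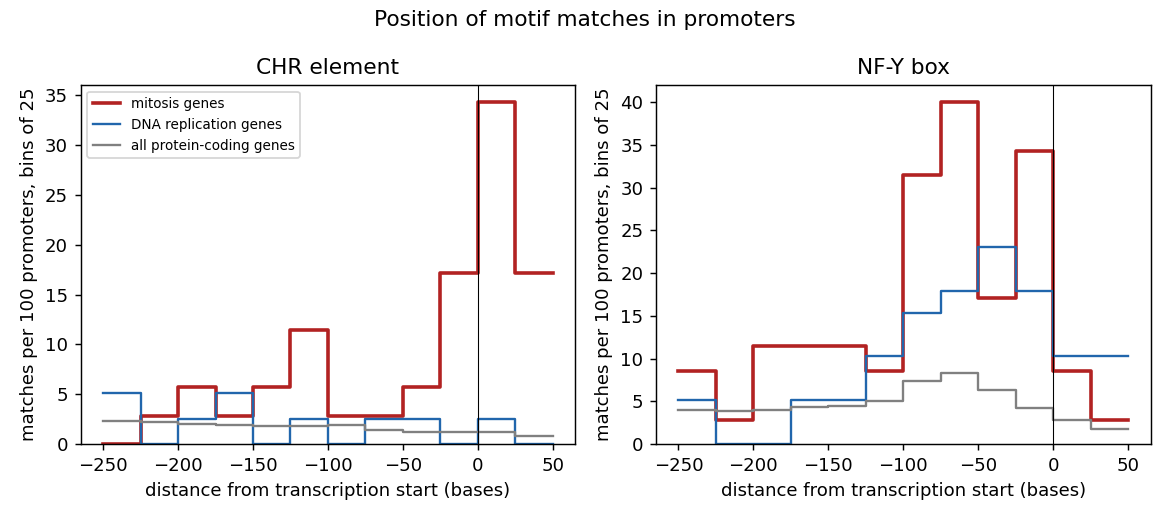
Matches of the CHR element (left) and of the NF-Y box (right) per 100 promoter windows, in bins of 25 bases by distance from the transcription start, for mitosis genes (red), DNA replication genes (blue) and all protein-coding genes (grey). CHR matches of the mitosis genes peak just after the start, and NF-Y matches are most frequent in the 100 bases before it.

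Ctla4, the targeted gene, read intensities of 5332, 4787 and 4587 in the wild type arrays. In the knockout arrays it read 812, 790.6 and 784, below every wild type value. It fell by 2.60 on the log2 scale (SE 0.10, limma adjusted p = 1.45e-06; exact permutation test, two-sided, p = 0.1, the smallest that 20 arrangements allow). The mean after trimming was 500.003 on each array, and medians ran from 62.1 to 75.2. Replicate 2 of both genotypes stood apart by high Xist, 14608 and 12599, against at most 106.7 on the other 4 arrays.

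The comparison asks how the genotypes differ in these genes on day 4. Of the 39 mitosis genes, 20 rose in CTLA-4 KO cells and 0 fell at an adjusted p of 0.05 (limma, Benjamini-Hochberg over the 27022 probe sets kept by the filter), while 1.19% of all genes tested were called higher, 0.5% lower and 1.69% either way. At an unadjusted limma p under 0.05, 38 were higher and 0 lower, where 9.42% of all genes were higher. With median centring of the arrays 26 were called higher, against 1.9% of all genes, and the calls over all genes were then 228 higher of 276, in place of 143 of 203. The median log2 difference over the 39 was 0.93, and over all genes it was 0.00. In 18 of the 39 the mean was at least 2-fold higher, against 1.28% of all genes. Values of the genotypes did not overlap in 32 of the 39, all of them higher in CTLA-4 KO, against 12.2% of all genes. When arrays were compared within pairs by a block on the replicate number, 37 of the 39 were called higher and 0 lower, against 5.48% and 3.44% of all genes, and the 20 genes of the unblocked fit were among the 37. Foxm1 and Cenpa were the other two. The list was drawn up with earlier results of these arrays known, and its direction is no independent evidence.

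The count of calls depended on the fit, while the direction turned with the fit in Foxm1 alone. The 5′ to 3′ ratio of the Actb control, a sign of RNA integrity, ran from 0.41 to 0.584 over the wild type arrays and from 0.544 to 0.691 over the knockout arrays. With that ratio as a term the median of the 39 was 0.83 and none of the 39 was called, where 0.0334% of all genes were called higher. At an unadjusted limma p under 0.05, 32 were higher in that fit, against 7.03% of all genes. Without the pair of arrays high in Xist the median was 0.74 and none of the 39 was called (0.15% of all genes higher), and 31 were higher at an unadjusted limma p under 0.05, against 6.59% of all genes. With donor sex, read from Xist, as a term, 20 were called higher (1.18%). With no filter on dim probe sets 4 were called higher (0.242%), and with no intensity trend in limma 0 (0.0667%), while 34 were higher at an unadjusted limma p under 0.05, against 7.36% of all genes.

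**Figure D2:**
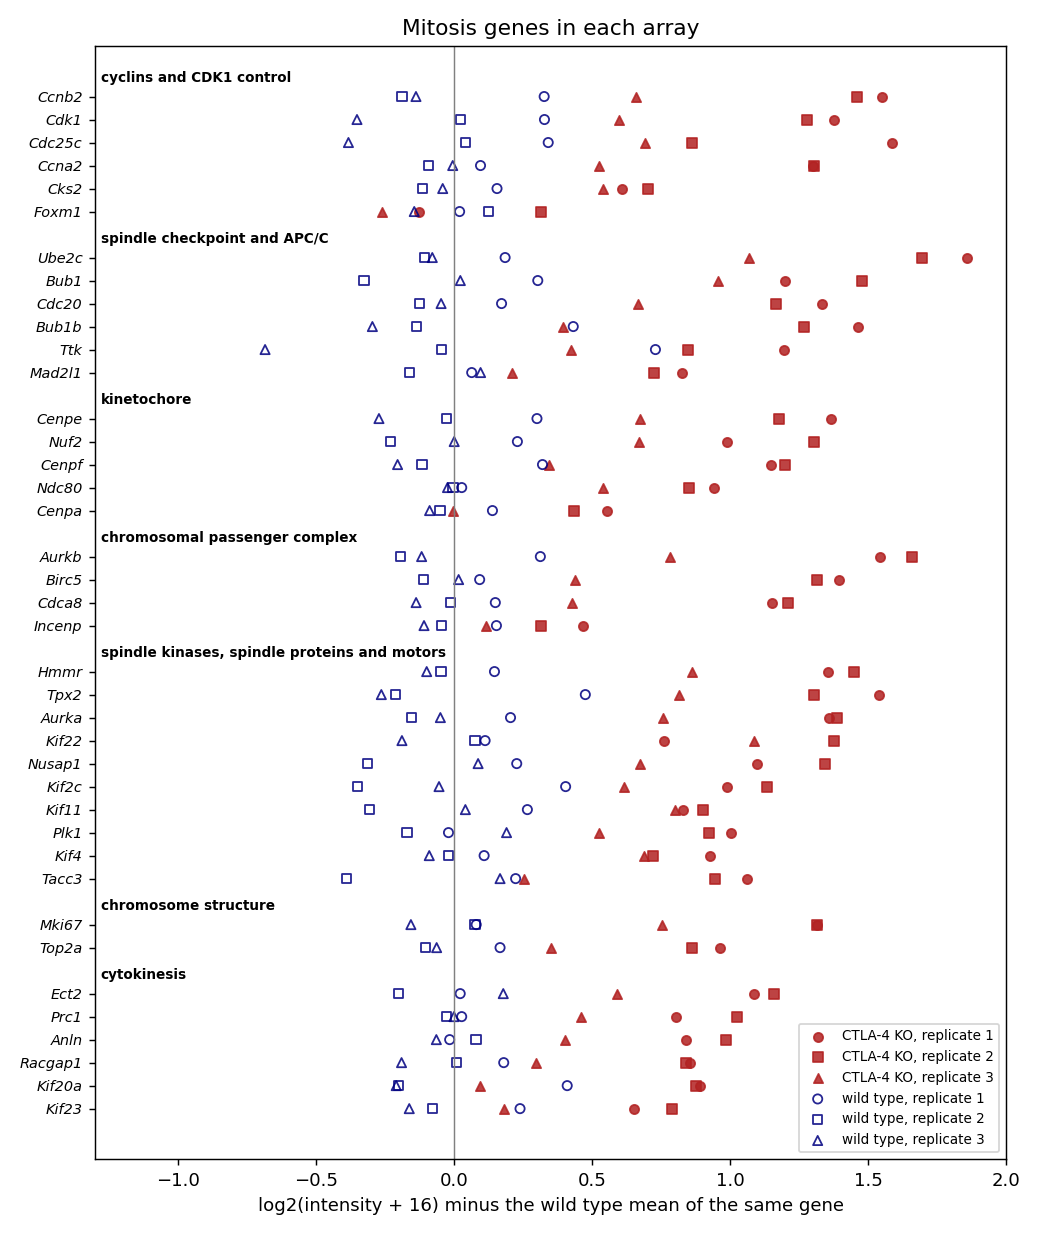
Level of each of the 39 mitosis genes in each array, as log2(intensity + 16) minus the mean of the 3 wild type arrays of the same gene; open blue symbols are wild type, filled red symbols are CTLA-4 KO, and the shape gives the replicate. In 32 genes all red symbols lie right of all blue ones, and replicate 3 of CTLA-4 KO lies leftmost among the red symbols in 38.

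The first step is the switch into mitosis, for which 6 genes were measured, with a median log2 difference of 1.04. Ccnb2, which encodes cyclin B2, read intensities of 1223, 851 and 882 in wild type replicates 1 to 3 and 2882, 2703 and 1544 in CTLA-4 KO. It rose by 1.22 ± 0.23 on the log2 scale (SE, limma adjusted p = 0.0322), and the lowest CTLA-4 KO array stood above the highest wild type array. Ccna2, for cyclin A2, read 640.0, 560.2 and 596 against 1495, 1498 and 867, a log2 difference of 1.04 ± 0.20 (limma adjusted p = 0.036). Cyclin A2 and B2 both had their lowest knockout reading in replicate 3. Cks2, a small subunit that binds the cyclin-dependent kinase, read 3042, 2519 and 2652 against 4168, 4456 and 3974, or 2738 ± 271 and 4199 ± 242 (mean ± SD, n = 3 arrays here and below). Its log2 difference was 0.62 ± 0.11, again without overlap (limma adjusted p = 0.0233). The kinase gene itself, Cdk1, read 519, 417 and 318 in wild type and 1092, 1019 and 629 in knockout cells. The groups did not overlap, but at a limma adjusted p of 0.0517 it just missed the threshold, and with the block the p was 0.00026. Cdc25c, the phosphatase that activates the kinase, had means of 53.3 ± 17 and 129.7 ± 51.1, not far above the filter, and no overlap (limma adjusted p = 0.122). Foxm1, a transcription factor of G2 and M phase genes, stood apart from the rest: it read 251, 271 and 222 in wild type and 225, 311 and 203 in knockout cells, with full overlap and a log2 difference of −0.02 ± 0.19 (limma adjusted p = 0.967). Its 2 further probe sets above the filter were near background in wild type, at 50.9 ± 34.5 and 28.7 ± 36.7. In knockout cells they read 110.9 ± 58.2 and 73.0 ± 3.99, log2 differences of 0.93 and 1.29, and neither was called. The dimmer of them passed the filter through the knockout arrays. Foxm1 thus stood apart by its brightest set and not by these dim ones. The sign of the brightest set turned with the scaling, to 0.034 with median centring and 0.031 with quantile normalization.

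Genes of the spindle checkpoint and of the APC/C, which it restrains, had a median of 1.05 over 6 genes, and 3 rose. Ube2c, the ubiquitin-conjugating enzyme that works with the APC/C, read 307, 248 and 253 in wild type and 1015, 904 and 581 in knockout cells. Its log2 difference of 1.54 ± 0.20 was the largest among the 39 genes (limma adjusted p = 0.00986), a 3.09-fold ratio of means, with even the lowest CTLA-4 KO array well clear of wild type. Cdc20, the activator through which the checkpoint holds the APC/C, read 2126, 1727 and 1824 against 4768, 4251 and 3004 (log2 difference 1.06 ± 0.16, limma adjusted p = 0.0157). Bub1, a checkpoint kinase at the kinetochore, read 278, 174 and 226 against 531, 649 and 446 (1.21 ± 0.20, limma adjusted p = 0.0215). For Bub1b, which encodes BubR1, a part of the inhibitory checkpoint complex, CTLA-4 KO replicate 3 at 669 stood just below wild type replicate 1 at 687, and the difference of 1.04 ± 0.27 was not called (limma adjusted p = 0.0979, and 0.000833 with the block). Ttk, the kinase MPS1 that starts checkpoint signalling, ran from 86.6 to 258 in wild type and from 205 to 362 in knockout cells, so the groups overlapped (limma adjusted p = 0.261). Mad2l1, for the checkpoint protein MAD2, read 1435, 1227 and 1468 against 2446, 2279 and 1589, without overlap but with a log2 difference of 0.11 in pair 3 (limma adjusted p = 0.114).

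Among 5 kinetochore and centromere genes the median was 0.90, and 2 rose. Cenpe, a kinetochore motor, read 355, 279 and 233 in wild type and 759, 664 and 464 in knockout cells (log2 difference 1.07 ± 0.21, limma adjusted p = 0.0402). Nuf2, a subunit of the NDC80 complex that grips microtubules, read 269, 191 and 227 against 467, 585 and 371 (0.99 ± 0.20, limma adjusted p = 0.0446). Ndc80, its partner in that complex, was tight in wild type at 228, 223 and 219 and read 444, 416 and 332 in CTLA-4 KO. That is a difference of 0.78 ± 0.16 without overlap, at a limma adjusted p of 0.0513. Cenpf, a large outer kinetochore protein, had means of 357 ± 75.7 and 693 ± 209.9 (limma adjusted p = 0.101). Cenpa, the histone H3 variant that marks centromeres, had the smallest difference of this step, 0.33 ± 0.15. It read 2400.4, 2103 and 2048 against 3205, 2952 and 2174, with overlap (limma adjusted p = 0.312, and 0.062 with the block).

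The chromosomal passenger complex, which corrects faulty attachments and later acts at the cell's midzone, had a median of 0.99 over its 4 subunit genes. Aurkb, the kinase of the complex, read 363, 251 and 266 in wild type and 875, 949 and 509 in knockout cells. It rose by 1.33 ± 0.23 (limma adjusted p = 0.0268), the second largest difference of the 39. Cdca8, for borealin, read 1608, 1436 and 1315 against 3235, 3370.1 and 1952, and rose (0.93 ± 0.19, limma adjusted p = 0.047). Birc5, for survivin, read 403, 348 and 382 against 1019, 962 and 517, with no overlap and a limma adjusted p of 0.0576. Incenp, the scaffold of the complex, read 5746, 5006 and 4788 against 7152, 6436 and 5599, with overlap (0.30 ± 0.11, limma adjusted p = 0.238, and 0.0446 with the block).

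Spindle kinases, spindle proteins and motors were the step with the most calls, 7 of 10, and in all 10 genes the groups did not overlap; the median was 0.98. Aurka, the kinase of spindle poles, read 311, 239 and 258 in wild type and 710.3, 726 and 464 in knockout cells (log2 difference 1.17 ± 0.20, limma adjusted p = 0.0215). Tpx2, its activator, read 381, 231 and 222 against 816, 689 and 486 (1.22 ± 0.24, limma adjusted p = 0.04). Hmmr, a spindle and hyaluronan-binding protein, read 327, 284 and 274 against 777, 830.2 and 548 (1.22 ± 0.18, limma adjusted p = 0.0128). Nusap1, which bundles microtubules near chromatin, read 867, 591 and 786 against 1601, 1898 and 1189 (1.04 ± 0.19, limma adjusted p = 0.0307). Replicate 3 was again the lowest knockout array in these 4 genes. Of the kinesin motors, Kif11, which pushes spindle poles apart, read 421, 278 and 358 against 630.2, 664 and 618, with knockout arrays close together (0.84 ± 0.17, limma adjusted p = 0.0402). The chromosome-bound motor Kif4 read 272, 247 and 235 against 492, 424 and 414 and rose (limma adjusted p = 0.0402), with near-equal differences of 0.82, 0.74 and 0.78 in the 3 pairs. Kif22, another chromosome-bound kinesin, rose by 1.08 ± 0.15 (limma adjusted p = 0.0126), and its arrays read 2328, 2269 and 1886 against 3656, 5619 and 4591. It is the gene in which CTLA-4 KO replicate 3 was not the lowest, and other probe sets of the gene differed by 0.67 (not called) and 1.06 (called). The probe sets used for Kif22, Kif2c, Aurkb, Cdc20 and Incenp, 3 of them called, carry the suffix that Affymetrix gives to sets that may cross-hybridise. Plk1, a kinase of mitotic entry and cytokinesis, had 308 ± 40.9 and 557 ± 96.7 (limma adjusted p = 0.0535). Kif2c, a microtubule-depolymerising kinesin, had 364 ± 102 and 691 ± 126 (limma adjusted p = 0.0672). Tacc3, a spindle protein phosphorylated by Aurora A, read 303, 192 and 290.3 against 554, 509.5 and 309, barely apart (limma adjusted p = 0.166). Of its further probe sets, one differed by 0.14 and was not called, and one was called with a wild type mean of 27.3 ± 24.4, under the filter's 35.4, so that it passed the filter through the knockout arrays (142 ± 32.9).

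Of the genes of chromosome structure, Mki67, for the Ki-67 coat of mitotic chromosomes, read 3332, 3322 and 2826 in wild type and 7854, 7868 and 5316 in knockout cells. With a log2 difference of 1.13 ± 0.15 (limma adjusted p = 0.00989), it is the 1 gene of the 39 that was called whichever array was left out. Top2a, the topoisomerase that untangles sister chromatids, read 2372, 1964 and 2020.4 against 4131, 3853 and 2698, with no overlap and a limma adjusted p of 0.055.

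Cytokinesis genes had the smallest median of the steps, 0.70 over 6 genes, and none reached a 2-fold ratio of means. Ect2, the exchange factor that turns on RhoA at the division plane, read 614, 523 and 685 in wild type and 1302, 1367 and 917 in knockout cells (log2 difference 0.95 ± 0.17, limma adjusted p = 0.0298). Prc1, which bundles the central spindle, read 583, 561 and 572 against 1009.9, 1180.5 and 793 (0.76 ± 0.15, limma adjusted p = 0.0456). Anln, the ring scaffold anillin, had 226 ± 12.4 and 395 ± 82.1 (limma adjusted p = 0.0829). Racgap1, the GTPase-activating part of the centralspindlin complex, had 409.9 ± 54.3 and 665 ± 139 (limma adjusted p = 0.112), and another of its probe sets differed by 1.14 and was called. Kif23, the motor of that complex, read 586, 467 and 439.5 against 786, 866 and 562, with overlap (0.54 ± 0.18, limma adjusted p = 0.19). Kif20a, a kinesin of the central spindle, overlapped between groups, from 209 to 330.1 in wild type and 262 to 468 in knockout cells (limma adjusted p = 0.266). The step medians, from 0.70 to 1.05, were not tested against each other.

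**Figure D3:**
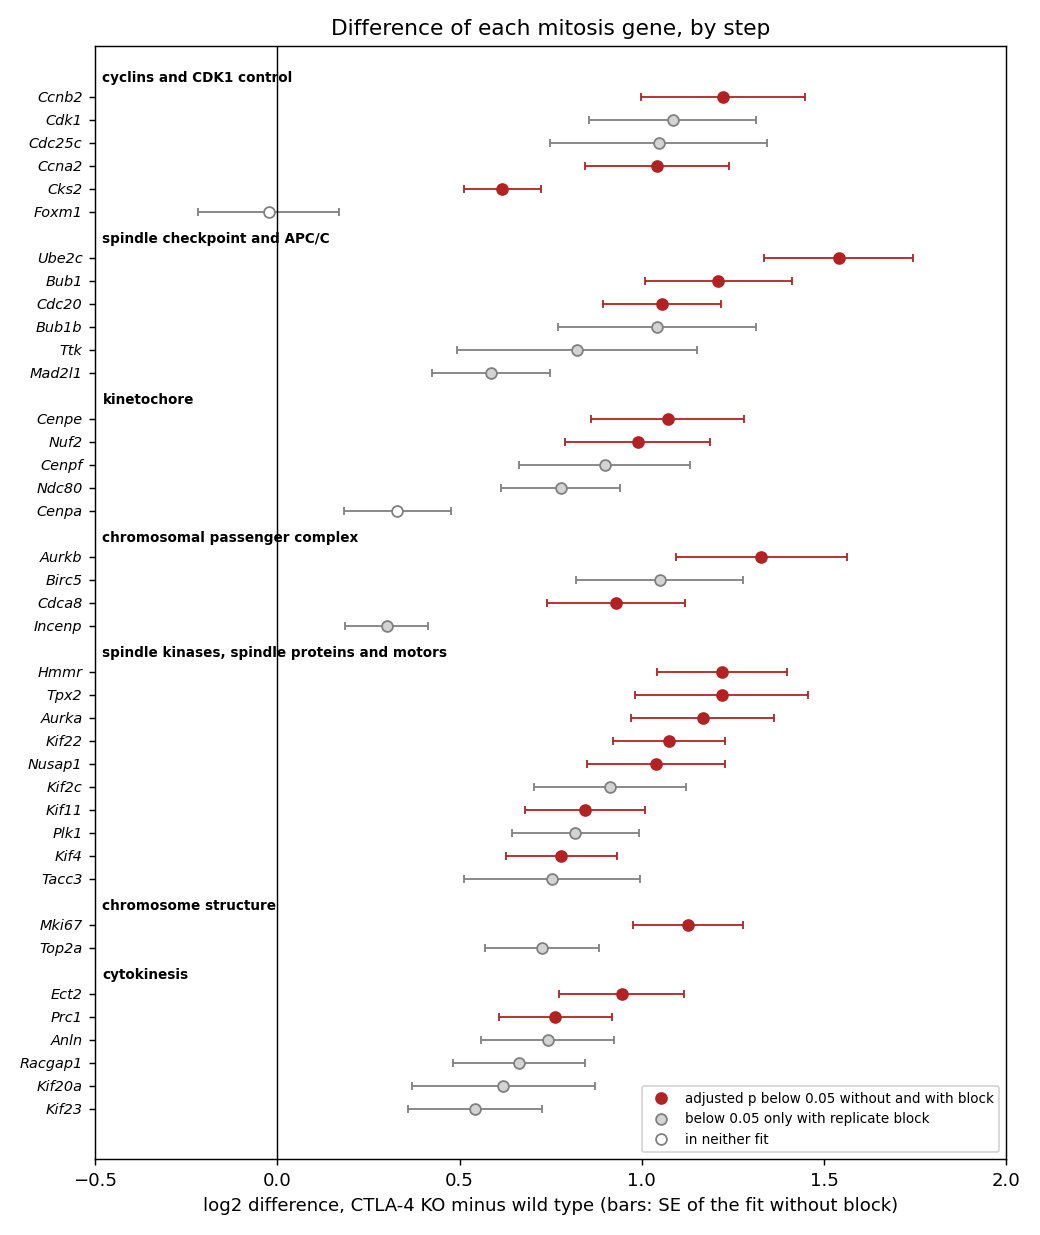
Log2 difference, CTLA-4 KO minus wild type, of each mitosis gene by step, with the SE of the fit without a block (n = 3 arrays a genotype); red marks genes called without and with the replicate block, grey filling genes called with the block alone, and white genes called in neither. The differences run from −0.02 for Foxm1 to 1.54 for Ube2c.

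Arrays with the same replicate number were taken as pairs, a pairing that the titles do not state. The size of the difference varied between pairs. The median over the 39 genes was 0.87 in pair 1, 1.24 in pair 2 and 0.59 in pair 3. Pair 2 had the largest difference in 35 genes and pair 3 the smallest in 29. Positive differences were seen in 38, 39 and 38 genes in pairs 1, 2 and 3, where 51.6%, 48.2% and 51.8% of all genes were positive, and 38 genes were positive in all 3 pairs, against 23.3% of all genes. The exception was Foxm1, at −0.15, 0.19 and −0.12. Every step followed the list in having its smallest median in pair 3. Pair 2 gave the largest step median except for the cyclins and CDK1 step, where pair 1 was at 1.13 and pair 2 at 1.04.

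**Figure D4:**
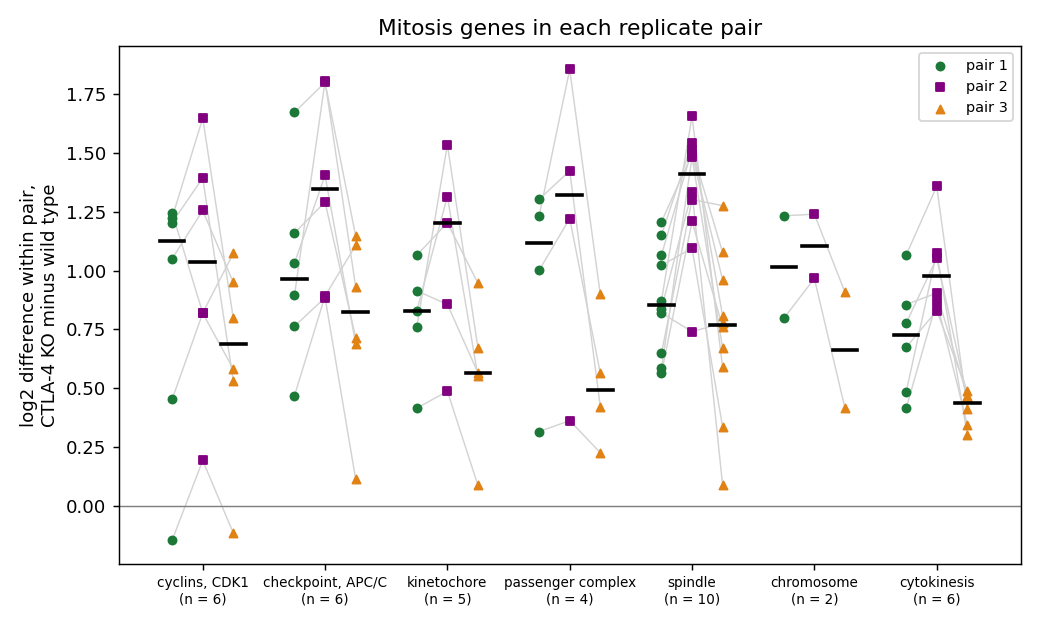
Log2 difference within each replicate pair for the 39 mitosis genes, by step; grey lines join a gene, and black bars are step medians. Medians over all genes of the list are 0.87, 1.24 and 0.59 in pairs 1, 2 and 3.

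Over the 39 genes, Spearman's rho of the differences was 0.59 between pairs 1 and 2, 0.48 between pairs 1 and 3 and 0.45 between pairs 2 and 3. These are descriptions across genes, which share arrays and are not replicates. The pair differences came from arrays of both genotypes. CTLA-4 KO replicate 3 was the lowest of its group in 38 of 39 genes, and wild type replicate 1 was the highest of its group in 34. Relative to the wild type mean of each gene, the median member stood at 0.18, −0.11 and −0.09 on the log2 scale in wild type replicates 1 to 3. In the knockout replicates it stood at 1.09, 1.16 and 0.54. The SD between arrays was larger in CTLA-4 KO than in wild type for 33 of 39 genes (84.6%), with medians of 0.33 and 0.18, against 44.8% of all genes. Leaving out knockout replicate 2 left 2 genes called higher (0.192% of all genes), and leaving out knockout replicate 1 left 5 (0.617%). Leaving out wild type replicate 2 left 4 (0.592%) and wild type replicate 3 left 2 (0.342%). Leaving out wild type replicate 1 gave 16 (0.901%), and leaving out knockout replicate 3 gave 24 (0.884%). No gene of the list was called lower, and the median stayed between 0.82 and 1.12 in these fits.

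Of the 39 genes, 24 had at least 1 further probe set above the filter, 36 probe sets in all. The difference was positive in 32 of the 36, and 8 were called higher, against 0.785% of all probe sets. The 8 belong to Ccna2, Cks2, Cdc20, Hmmr, Kif11, Kif22, Racgap1 and Tacc3. A further set each of Foxm1, Kif23 and Tacc3 had a wild type mean under the filter's cutoff, at 28.7, 30.2 and 27.3. These sets, with the called one of Tacc3 among them, passed through the knockout arrays and could only be positive. Their sign is therefore no evidence of agreement between probe sets. The share of positive differences over all probe sets is not given here. For Tpx2 the further sets ran from −0.37 to 0.60, and for Bub1 and Cenpf the further set was near 0, at −0.01 and −0.02. When the probe sets of each gene were averaged, 26 of 39 were called higher (2.24% of all genes) and all 39 differences were positive. Foxm1 was then at 0.73, an average with its dim sets. Tpx2 went from 1.22 to 0.31 and Bub1 from 1.21 to 0.60, and both lost their call (limma adjusted p = 0.378 and 0.218), while Kif2c went from 0.91 to 0.33.

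Other mitosis genes, from a second list of 89 that shares no member with the first, were also mostly higher. Of 84 tested, 11 rose and 0 fell (limma), against 1.19% and 0.5% of all genes. The median was 0.59, and 75 differences were positive, where 6026 of all 11990 genes had a positive one. With the block 44 rose and 1, the condensin gene Smc4, fell, against 5.48% and 3.44% of all genes. Spc25, of the NDC80 complex, rose from 243 ± 39.7 to 681 ± 167 (log2 difference 1.41 ± 0.20, limma adjusted p = 0.0127). Cks1b, the close relative of Cks2, rose from 4485 ± 90.1 to 7117 ± 658 (limma adjusted p = 0.0127). Cdca3, which promotes mitotic entry, rose from 431 ± 63.2 to 1136 ± 338 (limma adjusted p = 0.0193), and Depdc1a from 127 ± 25.2 to 346 ± 91.3 (limma adjusted p = 0.0215). In the second list the 9 genes grouped under cytokinesis, Cdca3 among them, had a median of 1.07, the largest among its steps. Of these, 3 rose and 5 were at least 2-fold higher (1.28% of all genes), unlike the order of steps in the first list. Their differences ran from −0.05 to 1.33, and the contrast in order depends on how genes were grouped into steps. The second list's 16 genes of checkpoint and APC/C had a median of 0.22, and 2 rose. The APC/C subunit genes Anapc1 and Cdc16 were at −0.01 and −0.02, and Cdc23 was at −0.08. Anapc4, Cdc27 and Anapc5 were at 0.07, 0.21 and 0.23, and none of these subunit genes was called. Genes of DNA replication, the S phase programme, had a median of 0.35 over 40 genes. Of the 40, 6 rose, against 1.19% of all genes, led by Rrm2, a subunit of ribonucleotide reductase (1733 ± 167 to 4068 ± 1016, limma adjusted p = 0.0127). Lig1, Uhrf1 and Prim2 rose with it. None of the 40 was called lower, and Mcm6, part of the replicative helicase, had the lowest difference, −0.22. The lists were not tested against each other.

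**Figure D5:**
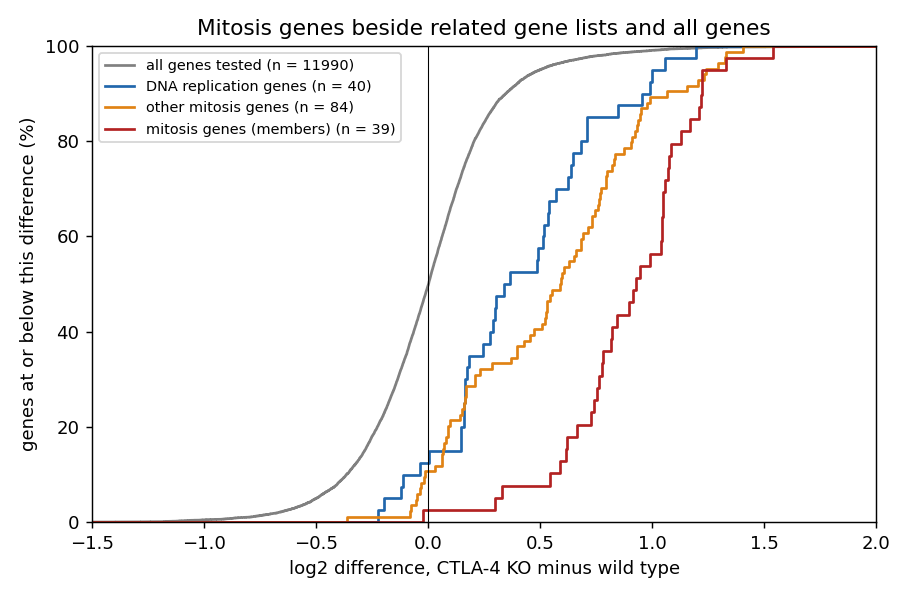
Share of genes at or below each log2 difference, CTLA-4 KO minus wild type, for the 39 mitosis genes (red), 84 other mitosis genes (orange), 40 DNA replication genes (blue) and all 11990 genes tested (grey). The list medians are 0.93, 0.59 and 0.35, against 0.00 for all genes.

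Among T cell markers, Cd3e stood at 3907 ± 461 and 4410.1 ± 223 and Cd4 at 5148 ± 241 and 5473 ± 461 (wild type and knockout), while Cd3g at −0.35 and Cd28 at −0.34 had negative log2 differences (limma adjusted p = 0.122 and 0.0731). The 7 measured markers had sums of 44524 to 47770.1 (wild type) and 43011 to 43305 (knockout), with none called. Of 8 measured B cell markers 4 were below the filter, among them Cd79a (13.1 and 6.77) and Pax5, and 1, Cd22, rose from 214 ± 42.5 to 887 ± 179; sums over the 8 were 432 to 762 (wild type) and 869 to 1414 (knockout). Of the 7 other than Cd22, 6 had a lower mean in knockout cells, among them Cd79b (110 and 91.5), and the median log2 difference of the 4 kept was −0.04. The 8 measured myeloid and dendritic markers summed to 394 to 468 and 293 to 467, and 4 CD8 and NK cell markers, with Cd8a at 125 ± 67.3 and 148 ± 87.3, summed to 337 to 689 and 615 to 812. The 6 measured germinal centre and plasma cell markers, mostly Ighm (9607 ± 1371 and 10709 ± 218), summed to 9488 to 12010.2 and 11903 to 12442, and 2 erythroid markers were below the filter. Their part in the mitosis result was not tested.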

How the data were processed

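Groups and replicate numbers were taken from sample titles. The titles call the arrays biological replicates but name no separate animals, so p-values measure the spread between these samples, which may in part be technical. The authors deposited 1 linear intensity per probe set and array. MAS5 and Partek are named in the submitters' processing notes, with no versions. The sources used here do not say how dim signals were handled.

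Values were turned into log2(intensity + 16). The 64 control probe sets were left out, and 27022 of 45037 probe sets whose mean log2 value reached the 40th percentile (an intensity of 35.4) were kept. Each kept probe set was tested between genotypes with limma 3.58.1 under R 4.3.3 (eBayes, trend on intensity, two-sided, Benjamini-Hochberg over kept probe sets, threshold 0.05), and the script was tested on simulated data. A log2 difference is knockout less wild type after adding 16, so for dim genes it is too small. Means ± SD are intensities of 3 arrays. The number of arrays limits the precision. Same-numbered arrays deviated together from their genotype's mean (correlations 0.371, 0.24 and 0.254), each above 0.1, so the numbers in the titles were taken to pair the arrays but the fit reported first has no block. Probe sets were named through an annotation table (1 gene for 34958, several for 932, none for 9211), with symbols updated through the RefSeq table of GRCm38.p6 (34754 matched).

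Named genes are all members of the list by step, from each of the related lists the 4 with the smallest p, Ctla4 and the fixed markers. Smc4, Anapc1, Anapc4, Anapc5, Cdc16, Cdc23, Cdc27, Mcm6, Cd22, Pax5 and Ighm were picked with their values in view. The members, lists, motifs and alternatives were chosen with earlier results of these data known.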

Additional observations from a re-analysis of the deposited data

How the results depend on the processing

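The 39 mitosis genes kept a positive median under the 20 alternatives run, from 0.74 to 1.12, and none was called lower in any of them. Counts of called genes moved more. In the order mitosis genes, other mitosis genes, DNA replication genes and all genes, against 20, 11, 6 and 203, they were 37, 45, 18 and 1070 with the replicate block, 4, 2, 1 and 66 with no filter on dim probe sets, 0, 0, 0 and 10 without the intensity trend (34 mitosis genes at an unadjusted limma p under 0.05), 0, 0, 0 and 10 with the Actb ratio as a term (32 unadjusted), and 0, 0, 0 and 29 without replicate 2 of both genotypes (31 unadjusted). Leaving out each array in turn gave 2 to 24 mitosis genes, 0 to 18 other mitosis genes, 0 to 5 replication genes and 39 to 146 genes in all. Other mitosis genes numbered 21 with median centring, 17 with quantile normalization, 19 with array weights and 17 with probe sets averaged per gene, and all genes 307 and 388 in the latter pair. Cutoffs at the 60th percentile, pseudocounts of 1 and 64, the Gapdh ratio and donor sex left the 4 counts within 1.5 times. Fewer arrays leave fewer residual degrees of freedom, and the cause of the other shifts was not tested. Foxm1 turned from −0.02 to 0.034 with median centring, 0.031 with quantile normalization, 0.048 with array weights and 0.73 with averaged probe sets. With single arrays left out it ran from −0.19 to 0.094 and was positive without wild type replicate 2 (0.038), knockout replicate 1 (0.028) or knockout replicate 3 (0.094). Ctla4 stayed called, from −2.64 to −2.53 when single arrays were left out. With the block, 17 further mitosis genes were called, all higher. Signal near background limits Cdc25c.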
